A study of Mus musculus with 15 samples.

Results

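The 10 genes described here encode the machinery that loads peptides on major histocompatibility complex (MHC) class I molecules, and were taken by name from the 39179 genes counted. They are the light chain B2m, the heavy chains H2-K1, H2-D1 and H2-Q6, the peptide transporter Tap1 and Tap2, its loading partner Tapbp, the transcriptional activator Nlrc5, and the inducible proteasome subunits Psmb8 and Psmb9. All 10 passed the filter on low counts. Nlrc5 lies on chromosome 8 and B2m on chromosome 2. The other 8 lie on chromosome 17 (GRCm38), where Psmb9, Tap1, Psmb8 and Tap2 are neighbours between 34181987 and 34216321.

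RNA came from submandibular salivary glands of adult male C57BL/6 mice, with 3 libraries in each of 5 groups. Glands labelled IR+Shh, IR+Gli1 and IR+GFP had received local irradiation and a transfer into the gland of the gene for Shh, Gli1 or green fluorescent protein (GFP). IR glands were irradiated without a transfer, and NT glands were untreated; both are labelled wild type, and no engineered allele is named for any group. All 4 irradiated groups were collected 7 days after irradiation. Hedgehog signalling starts from secreted ligands such as Shh, and its target Gli1 encodes a transcription factor. The vector, its dose, the radiation dose and whether each library was a separate animal were not given in the sources used here, so the p-values below cover the spread of these samples and no more.

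The libraries held 18205941 to 41064723 gene reads. In each group, 2 libraries differed by less than the sampling noise and were counted as 1 sample (IR+Shh 1 and 3, libraries 1 and 2 of IR+Gli1, IR+GFP and IR, and NT 2 and 3), which left 2 samples a group. Reads of the mouse Gli1 gene averaged 3.46 ± 1.10 CPM in IR+Shh, 0.606 ± 0.093 in the group labelled IR+Gli1, 0.660 ± 0.151 in IR+GFP, 0.657 ± 0.065 in IR and 0.560 ± 0.066 in NT (SD, n = 2 each). The transferred gene was therefore not seen as mouse Gli1 reads in the group that carries its name, and IR+Gli1 below is the label of those samples. For mouse Shh, every one of the 15 libraries was at 0 reads, so levels under 0.0731 CPM in the deepest and 0.165 CPM in the shallowest library would go unseen. IR+GFP 3 and IR+Gli1 3 stood apart, with 8.22% and 7.53% of their reads aligned to several places, against 2.89% to 4.79% in the other 13 libraries. The NT 2 and 3 sample held 34450 CPM of sublingual gland markers, against 3.91 CPM in NT 1. The sample of IR+GFP 1 and 2 held 189 CPM of them, against 6.70 CPM in IR+GFP 3. Levels are CPM, read counts scaled to a common library size by TMM, and adjusted p-values are from edgeR's quasi-likelihood test over all 14300 genes tested.

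Class I molecules display short peptides from inside the cell to CD8 T cells, and nearly all nucleated cells carry them. Peptides are cut by the proteasome, pumped into the endoplasmic reticulum by the Tap1 and Tap2 transporter, and loaded on a heavy chain paired with B2m while Tapbp (tapasin) bridges the transporter and the empty molecule. Interferons raise the whole set: they induce Nlrc5, which acts on class I promoters, and they replace the catalytic subunits of the standard proteasome by Psmb8, Psmb9 and Psmb10, which form the immunoproteasome.

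Every member was highest in the samples labelled IR+Gli1, and the other 4 groups lay much closer together. The light chain B2m, which every classical class I molecule needs, was at 666 and 588 CPM in IR+Shh, 2753 and 2149 in IR+Gli1, 262 and 484 in IR+GFP, 255 and 234 in IR, and 259.5 and 270.5 in NT, with the combined pair of libraries given before the single library in each group. The IR+Gli1 samples did not overlap any other group, and both IR+Shh samples lay above all 6 samples of IR+GFP, IR and NT. H2-K1, a classical heavy chain and the most abundant member, was at 1113 and 985 CPM in IR+Shh, 5229 and 3579 in IR+Gli1, 499.9 and 907 in IR+GFP, 529 and 439 in IR, and 593 and 501 in NT. It had the same order at the top, and IR+GFP overlapped NT. H2-D1, the other classical heavy chain of this strain, was at 635 and 615 CPM in IR+Shh, 2658 and 2016 in IR+Gli1, 371 and 630.4 in IR+GFP, 387 and 339 in IR, and 411 and 354 in NT. Here the IR+Shh samples overlapped the IR+GFP samples.

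H2-Q6, a nonclassical heavy chain of the Qa-2 family, was at 11.4 and 10.9 CPM in IR+Shh, 154 and 176 in IR+Gli1, 3.54 and 21.3 in IR+GFP, 4.01 and 3.62 in IR, and 3.01 and 2.88 in NT. The IR+GFP samples lay 6.01-fold apart, the lower just under the IR samples and the higher above both IR+Shh samples. H2-Q6 has near-identical neighbours in the same cluster, and reads with several alignments were not counted, so its level is uncertain. IR+GFP 3 and IR+Gli1 3, the libraries with the highest shares of such reads, were also the higher H2-Q6 samples of their groups; the part of read alignment in this was not tested.

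**Figure D1:**
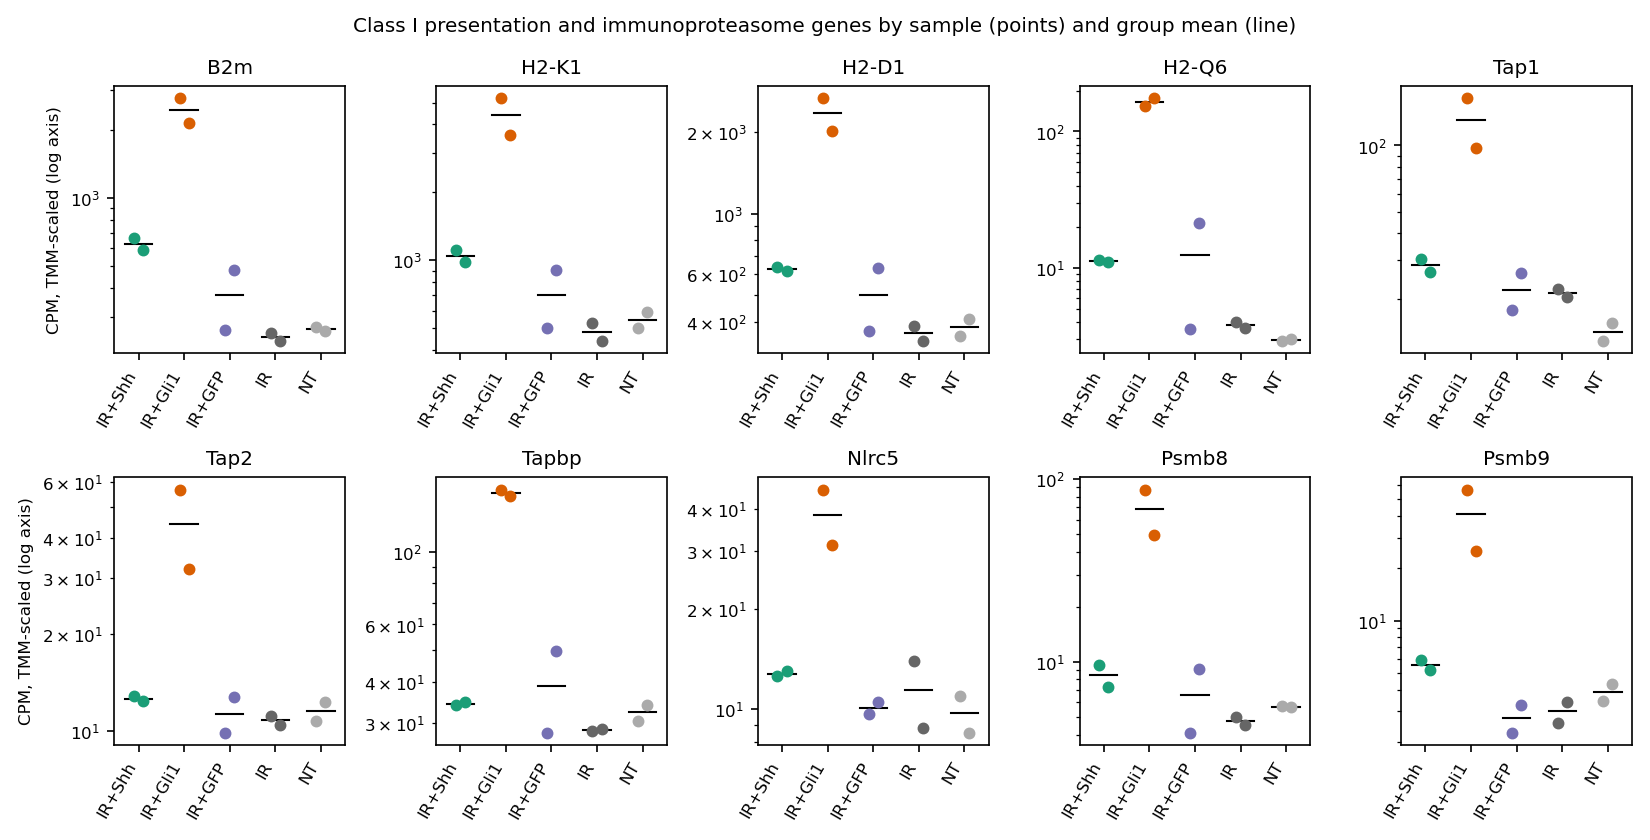
CPM of each of the 10 genes (log axis) in the 2 samples of each group, with the group mean as a line. In every panel both samples labelled IR+Gli1 lie above all others, and the 2 IR+GFP points are far apart for H2-Q6 (3.54 and 21.3 CPM).

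Per kilobase of principal transcript, B2m and H2-K1 were the most abundant members in every group. In IR+Gli1, B2m reached 3201 and 2499 CPM per kb and H2-K1 3230.0 and 2210.4, against 6.04 and 4.12 for Nlrc5, the least abundant member there. In NT the level per kb was 302 and 315 for B2m and 1.12 and 1.45 for Nlrc5. Psmb8 was at 53.7 and 30.2 CPM per kb in IR+Gli1 and Psmb9 at 41.9 and 18.5, against 3.47 and 3.50 for Psmb8 and 3.17 and 2.56 for Psmb9 in NT.

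The comparison of IR+Gli1 with IR+GFP sets the Gli1 label against the transfer control. All 10 members rose, while 8.23% of all genes tested did (1177 of 14300). Members were chosen with earlier results of these data known, so the share beside them is no independent test of the set. The fitted log2 changes of the members ran from 1.93 for Nlrc5 to 3.91 for Psmb9, with a median of 2.61, beside a median of 0.01 over all genes, and adjusted p ran from 0.00162 to 0.0228. In bulk samples, a change in the number of cells that express a gene and a change in RNA per cell cannot be told apart.

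Among the chains of the class I molecule, B2m averaged 2451 ± 427 CPM in IR+Gli1 and 373 ± 157 in IR+GFP (SD, n = 2 each), a 6.57-fold rise (log2 2.72 ± 0.27 SE, adjusted p = 0.00162). H2-K1 averaged 4404 ± 1167 CPM in IR+Gli1 and 703 ± 288 in IR+GFP, 6.26-fold (adjusted p = 0.0025). H2-D1 averaged 2337 ± 454 CPM in IR+Gli1 and 500.5 ± 184 in IR+GFP, 4.67-fold (adjusted p = 0.00236). H2-Q6 averaged 165 ± 15.3 CPM in IR+Gli1 and 12.4 ± 12.5 in IR+GFP, and its 13.7-fold rise had the widest error of the set (log2 3.78 ± 0.71, adjusted p = 0.0228). Its call had the least margin of the members: leaving out any 1 of 6 samples (either sample of IR+Shh, IR+Gli1 or IR) gave adjusted p between 0.0524 and 0.115.

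Of the loading genes, Tap1, a subunit of the peptide transporter, was at 164 and 97.2 CPM in IR+Gli1, against 17.9 and 26.2 in IR+GFP, 5.96-fold higher (log2 2.58 ± 0.27, adjusted p = 0.00282). Its partner Tap2 was at 56.8 and 32.0 CPM in IR+Gli1, against 9.85 and 12.7 in IR+GFP, 3.97-fold higher (adjusted p = 0.00382). Tapbp was at 154 and 147 CPM in IR+Gli1, against 28.1 and 49.7 in IR+GFP, 3.90-fold higher (adjusted p = 0.00276). For all 3 the IR+Gli1 samples lay well above the IR+GFP samples, and Tapbp had the smallest spread within IR+Gli1. Nlrc5, the class I transactivator, was at 45.8 and 31.2 CPM in IR+Gli1, against 9.72 and 10.5 in IR+GFP, 3.82-fold higher (log2 1.93 ± 0.25, adjusted p = 0.00388). Exons of Tap1 and Psmb9 share 212 bases on opposite strands. Counted without strand, reads there would fit both genes and could be left out as ambiguous. The strand mode is not given in the sources used here. Tapbp shares 149 exon bases with Zbtb22 on the same strand, and Tap2, Psmb8, Tapbp and Nlrc5 have noncoding genes on the opposite strand.

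The inducible proteasome subunits and H2-Q6 had the largest fold changes of the members. Psmb9 was at 56.7 and 25.03 CPM in IR+Gli1, against 2.26 and 3.26 in IR+GFP, 15.1-fold higher (log2 3.91 ± 0.41, adjusted p = 0.00288). Psmb8 was at 87.4 and 49.2 CPM in IR+Gli1, against 4.09 and 9.10 in IR+GFP, 10.6-fold higher (log2 3.41 ± 0.40, adjusted p = 0.0041).

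**Figure D2:**
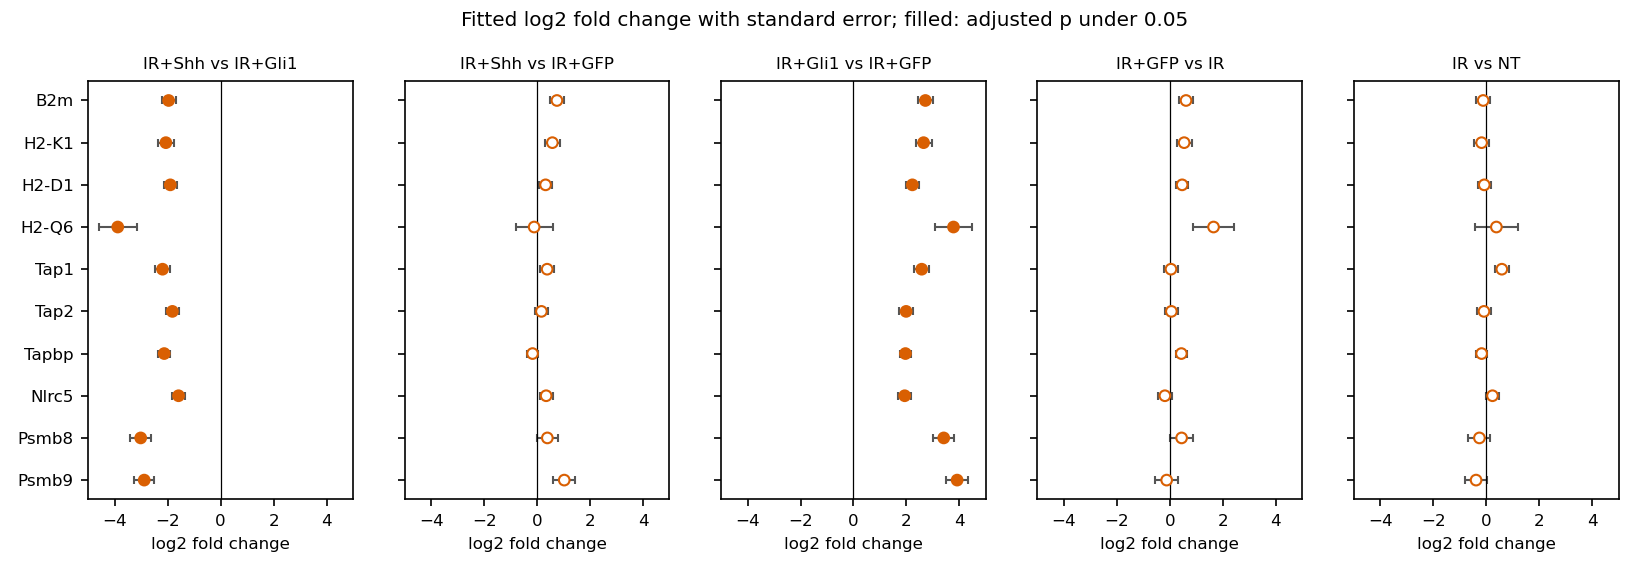
Fitted log2 fold change of each of the 10 genes with its standard error (bars) in the 5 comparisons; filled points have an adjusted p under 0.05. The points of IR+Gli1 against IR+GFP run from 1.93 to 3.91 and those of IR+Shh against IR+Gli1 from -3.89 to -1.59, all filled, and no point of the other 3 comparisons is filled.

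The size of the rise depended on the samples set against each other. IR+GFP 3 was above IR+GFP 1 and 2 in all 10 members, by 1.08-fold for Nlrc5 to 6.01-fold for H2-Q6. Between the samples of libraries 1 and 2, IR+Gli1 exceeded IR+GFP by log2 2.24 to 5.45 (median 3.29); between the samples of library 3, by 1.33 to 3.05 (median 1.94). With IR+GFP 3 and IR+Gli1 3 both left out, which leaves 1 sample in each group and assumes that it varies like the samples of the other groups, all 10 members rose. Against IR in place of IR+GFP all 10 rose as well, with log2 changes of 1.75 for Nlrc5 to 5.42 for H2-Q6. All 10 were also higher with total-count scaling, where the median over all genes shifted to 0.79 and that of the members to 3.44. Fitted on the 4 samples of the compared groups alone, 0 of 10 passed (adjusted p 0.0643 to 0.166) with log2 changes of 1.92 to 3.90; without the sample of IR+GFP 1 and 2, 7 passed and Tap2, Nlrc5 and Psmb9 did not (adjusted p 0.0538 to 0.0672).

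Promoter sequences are shown for the members because the heavy chains and B2m moved together in these samples. A match is a description of the letters, and its part in the change was not tested. RefSeq promoters of GRCm38.p6, reaching from 250 bases before to 50 after the start, were at hand for 8 of the 10 members (not Tap2 and Nlrc5). The following stretches of 140 bases from the 3 heavy chains begin 10 bases before the kappa B match. Capitals mark matches, on either strand, to kappa B (GGG and TCCC with any 3 bases between them), to a relaxed interferon-response core (GAANNGAAA, chosen after the sequences were seen), to the CRE core (TGACG) and to the CCAAT box (CCAAT), from 5′ to 3′.
H2-K1 (chr17:34000329-34000468, minus strand): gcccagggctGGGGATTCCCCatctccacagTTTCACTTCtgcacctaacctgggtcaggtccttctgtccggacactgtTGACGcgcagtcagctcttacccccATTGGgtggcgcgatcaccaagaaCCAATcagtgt
H2-D1 (chr17:35262913-35263052, plus strand): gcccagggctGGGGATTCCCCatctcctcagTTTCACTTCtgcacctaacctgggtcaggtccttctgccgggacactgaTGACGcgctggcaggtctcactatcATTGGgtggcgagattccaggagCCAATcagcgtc
H2-Q6 (chr17:35424667-35424806, plus strand): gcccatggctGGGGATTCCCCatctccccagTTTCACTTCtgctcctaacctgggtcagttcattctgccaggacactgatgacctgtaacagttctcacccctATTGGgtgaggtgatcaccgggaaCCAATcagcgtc
The H2-K1 and H2-D1 stretches were 87.2% identical, and each was 83.7% identical to H2-Q6. A run of 21 bases, ggctggggattccccatctcc, holds the kappa B match and is the same in all 3, as is the run of 15 bases, cagtttcacttctgc, with the relaxed interferon-response core. TGACG matched in the H2-K1 and H2-D1 stretches and not in that of H2-Q6, and CCAAT matched in all 3. Kappa B matched in these 3 of the 8 member promoters and in 5.55% of the 32851 promoters in the table. The relaxed core matched in 3 of the 8, the same heavy chains, against 7.52% of all promoters. Both sets of 3 matches lie in runs that the 3 stretches share, so they are not independent of each other. As the relaxed core was chosen after these sequences were seen, its share is no test.

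B2m lies on another chromosome and is shown because it holds the full interferon-response core (GAAA on each side of any 2 bases, with 1 A more than the relaxed core), from -139 to -130 relative to its start. Capitals in the 150 bases before its start mark that core, the CRE core and the CCAAT box.
B2m (chr2:122147537-122147686, plus strand): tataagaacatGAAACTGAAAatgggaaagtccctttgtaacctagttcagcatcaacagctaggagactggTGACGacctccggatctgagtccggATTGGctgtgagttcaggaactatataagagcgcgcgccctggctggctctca
The full core matched in 1 of the 8 member promoters and in 3.44% of all promoters. CCAAT matched in 7 of the 8 against 37.4% of all, and TGACG in 5 of the 8 against 20.8%. The promoters of Tap1 and Psmb9 overlap, so their CCAAT and TGACG matches are the same bases counted for both genes. The gamma-activated site (TTCNNNGAA) matched in 1 of the 8, Psmb8 (from -97 to -89), against 8.30% of all.

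Tap1 and Psmb9 are transcribed away from each other from starts 226 bases apart (34187556 for Tap1 and 34187330 for Psmb9 on chromosome 17). The bases between both starts are shown on the Tap1 strand, with the CCAAT box near the Psmb9 start and the CRE core in capitals.
Tap1 and Psmb9 (chr17:34187331-34187555, plus strand): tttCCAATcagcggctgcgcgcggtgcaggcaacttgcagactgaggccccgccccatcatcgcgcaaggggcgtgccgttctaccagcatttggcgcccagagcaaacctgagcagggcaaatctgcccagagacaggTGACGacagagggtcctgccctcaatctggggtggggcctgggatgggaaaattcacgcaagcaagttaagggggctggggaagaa
No match to kappa B or to either interferon-response core was found in this stretch. Such matches are letters in a window, and binding was not measured in these samples.

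RNA of the catalytic proteasome subunits was compared in pairs, since Psmb8, Psmb9 and Psmb10 take the places of Psmb5, Psmb6 and Psmb7. The ratios are of RNA levels per length in bulk samples, with no test of the ratio. Assembled proteasomes were not measured. Per kilobase, Psmb8 was 1.44 and 0.918 times Psmb5 in IR+Gli1, against 0.0801 and 0.170 times in IR+GFP. In the other 3 groups the ratio of Psmb8 to Psmb5 was 0.198 and 0.146 (IR+Shh), 0.107 and 0.0920 (IR), and 0.0782 and 0.0941 (NT). Psmb9 was 0.454 and 0.238 times Psmb6 in IR+Gli1 and 0.0220 and 0.0316 times in IR+GFP. Psmb10 was 0.552 and 0.264 times Psmb7 in IR+Gli1 and 0.0554 and 0.0585 times in IR+GFP. In all 3 pairs the IR+Gli1 ratios were above those of every other group. The standard subunits gave 0 of 3 calls: Psmb5 averaged 31.5 ± 2.7 CPM in IR+Gli1 and 28.9 ± 1.0 in IR+GFP (adjusted p = 0.508), Psmb6 67.9 ± 8.2 in IR+Gli1 and 60.8 ± 0.13 in IR+GFP (adjusted p = 0.362), and Psmb7 61.8 ± 7.0 in IR+Gli1 and 53.7 ± 1.0 in IR+GFP (adjusted p = 0.211).

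**Figure D3:**
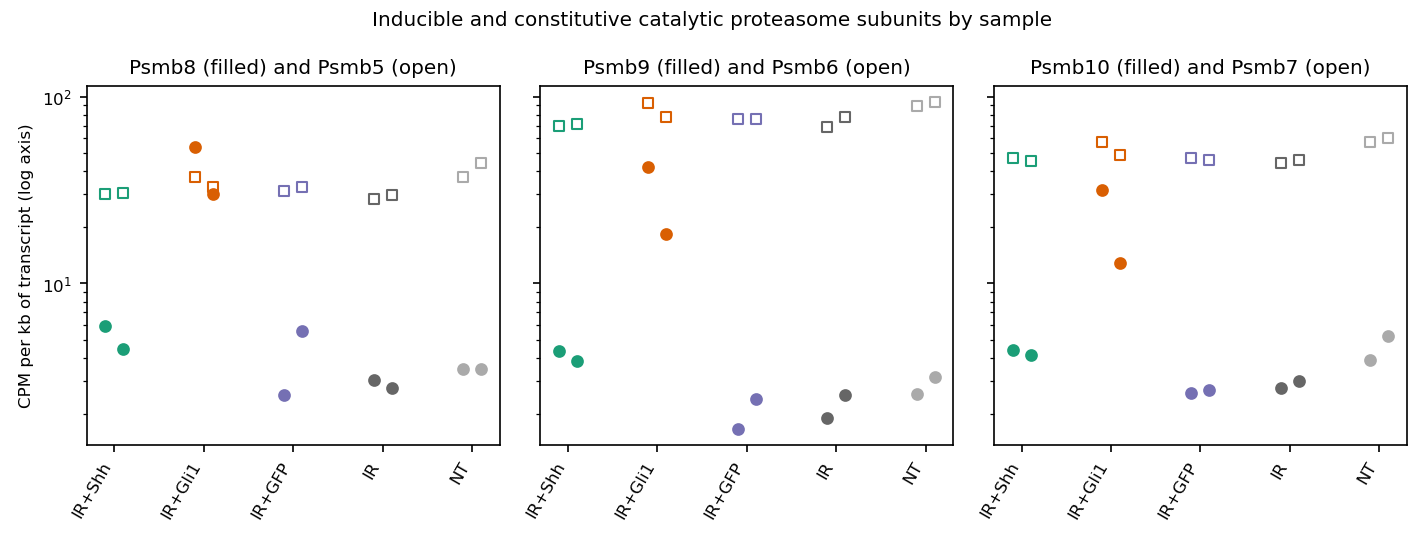
Level per kilobase of transcript (log axis) of each inducible catalytic subunit (filled circles) and the standard subunit it replaces (open squares) in the 2 samples of each group. Psmb8 comes near the level of Psmb5 in the samples labelled IR+Gli1 (ratios 1.44 and 0.918), while in the other groups it is at most 0.198 times Psmb5.

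The other proteasome genes were counted by list in IR+Gli1 against IR+GFP. Of 4 inducible partners, 3 rose and 0 fell. Psmb10, the remaining catalytic immunosubunit, averaged 29.3 ± 17.5 CPM in IR+Gli1 and 3.46 ± 0.07 in IR+GFP (log2 3.09 ± 0.40, adjusted p = 0.0045). Psme1 and Psme2, the subunits of the PA28 activator that interferon-gamma induces, averaged 94.9 ± 31.1 and 87.8 ± 35.2 CPM in IR+Gli1, against 36.0 ± 1.1 and 29.0 ± 1.7 in IR+GFP (adjusted p = 0.0041 and 0.0053). Pomp, the assembly chaperone, did not pass (log2 0.23, adjusted p = 0.16). Of 11 subunits of the core shell, 2 rose, Psmb3 (log2 0.61) and Psmb2 (log2 0.52), and the list median was 0.37. Of 19 subunits of the regulatory particle and other activators, 3 rose, by log2 0.40 (Psmc5) to 0.50 (Psmd4), and Psme4 fell by 0.42 on the log2 scale.

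Of 16 other class I heavy-chain and class I-like genes, 13 were tested and 9 rose in IR+Gli1 against IR+GFP, with a list median of log2 2.32. H2-T10 averaged 9.02 ± 3.10 CPM in IR+Gli1 and 0.644 ± 0.307 in IR+GFP (log2 3.85, adjusted p = 0.0021). H2-M3, which presents formylated peptides of bacteria and mitochondria, averaged 11.8 ± 5.6 CPM in IR+Gli1 and 1.89 ± 0.02 in IR+GFP (log2 2.65, adjusted p = 0.0028). H2-T22, which gamma delta T cells can recognise, averaged 228 ± 85 CPM in IR+Gli1 and 46.9 ± 10.6 in IR+GFP (log2 2.28, adjusted p = 0.0029). Mr1, which presents vitamin B metabolites, and Fcgrt, the neonatal Fc receptor, did not pass (log2 0.12 and 0.05, adjusted p = 0.76 and 0.916). Of 15 genes of peptide loading and trimming, 2 rose, 1 fell and the list median was log2 -0.29. Erap1, the aminopeptidase that trims peptides in the endoplasmic reticulum, averaged 40.5 ± 13.9 CPM in IR+Gli1 and 16.0 ± 0.5 in IR+GFP (log2 1.34, adjusted p = 0.0068). Tapbpl, a tapasin-like peptide editor, rose by log2 0.63 (adjusted p = 0.0429), and Uggt1, the glycoprotein quality-control enzyme, fell by 0.56 on the log2 scale (adjusted p = 0.0442). The general chaperones Calr and Pdia3 of the loading complex had log2 changes of -0.42 and -0.15 and did not pass.

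Of 18 transcription factors known to act on class I genes, 8 rose and 0 fell in IR+Gli1 against IR+GFP. Stat2 averaged 79.2 ± 17.2 CPM in IR+Gli1 and 21.0 ± 0.4 in IR+GFP (log2 1.91, adjusted p = 0.0013). Irf9, the partner of Stat2 in the type I response, averaged 60.7 ± 9.4 CPM in IR+Gli1 and 20.1 ± 5.3 in IR+GFP (log2 1.60, adjusted p = 0.0028). Irf1, a direct inducer of class I promoters, was at 66.2 and 29.9 CPM in IR+Gli1, against 9.46 and 11.6 in IR+GFP (log2 2.20, adjusted p = 0.0089). The subunits of the RFX and NF-Y complexes, which hold Nlrc5 on its promoters, gave 0 calls among 6 genes. Of 12 interferon ligands, receptors and their regulators tested, 6 rose and Jak1 fell by 0.36 on the log2 scale (adjusted p = 0.0333). The feedback inhibitors Socs3 and Socs1 rose by log2 2.70 and 4.42 (adjusted p = 0.0088 and 0.0132), and the receptor chain Ifngr1 by log2 0.78 (adjusted p = 0.0136). Socs1 was at 2.09 and 1.34 CPM in IR+Gli1, against 0.0426 and 0.123 in IR+GFP. The IR+GFP levels were at the detection limit, so the size of its rise is uncertain. The ligand Ifng was near the detection limit, at 0.54 and 0.316 CPM in IR+Gli1, against 0 and 0.0615 in IR+GFP, and did not pass (adjusted p = 0.089).

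In IR+Gli1 against IR+GFP the sums of the leukocyte marker lists were higher, as were the class I genes. The summed level of 6 pan-leukocyte markers was 197 and 103 CPM in IR+Gli1 and 25.5 and 43.7 in IR+GFP, and 6 of 6 rose; Ptprc (CD45) was at 36.0 and 15.9 CPM in IR+Gli1, against 3.88 and 6.64 in IR+GFP. The 17 T and NK cell markers summed to 96.0 and 37.6 CPM in IR+Gli1, with none at 0 reads. In IR+GFP they summed to 3.54 and 7.87 CPM, with 6 and 4 at 0. Of the 12 tested, 8 rose, led by Prf1, Gzmb and Gzma. Gzma (29.8 and 10.1 CPM) and Gzmb (31.7 and 12.6) were the largest parts of the IR+Gli1 sums. The T cell genes Cd3e and Cd8a were near the detection limit. Cd3e was at 0.288 and 0.118 CPM in IR+Gli1, overlapping IR+GFP (0 and 0.246). Cd8a was at 0.684 and 0.118 CPM in IR+Gli1, against 0.0426 and 0 in IR+GFP. The 13 macrophage and monocyte markers summed to 520.1 and 352 CPM in IR+Gli1 and 140.2 and 204 in IR+GFP, with 8 of 13 raised. Neutrophil markers summed to 13.8 and 3.55 CPM in IR+Gli1 and 0.341 and 0.738 in IR+GFP, with 1 of 2 raised. B cell and lymph node markers summed to 18.2 and 4.23 CPM in IR+Gli1 and 0.426 and 0.861 in IR+GFP, with 3 of 3 tested raised, among them Ltb and Cd22. Dendritic cell markers summed to 16.7 and 17.1 CPM in IR+Gli1 and 5.03 and 9.90 in IR+GFP, with 1 raised (Itgax) and 1 lowered (Cd209a). The B cell marker Ms4a1 was at or near 0 in every sample. Of 5 endothelial markers, Pecam1 rose. Submandibular gland markers summed to 27905 and 58295 CPM in IR+Gli1 and 136415 and 127213 in IR+GFP, and 5 of 9 fell, among them Egf. Outside IR+Gli1 the leukocyte sums did not all follow the class I sum. In NT the class I sum was 1346 and 1203 CPM, against 2531 and 2298 in IR+Shh. Pan-leukocyte markers summed to 40.1 and 72.9 CPM in NT, against 55.1 and 53.7 in IR+Shh. Macrophage and monocyte markers summed to 246 and 270 CPM in NT, against 242 and 260 in IR+Shh. T and NK cell markers were lower in NT, at 6.42 and 6.31 CPM, against 14.9 and 13.4 in IR+Shh. The part of cell composition in the class I change was not tested.

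**Figure D4:**
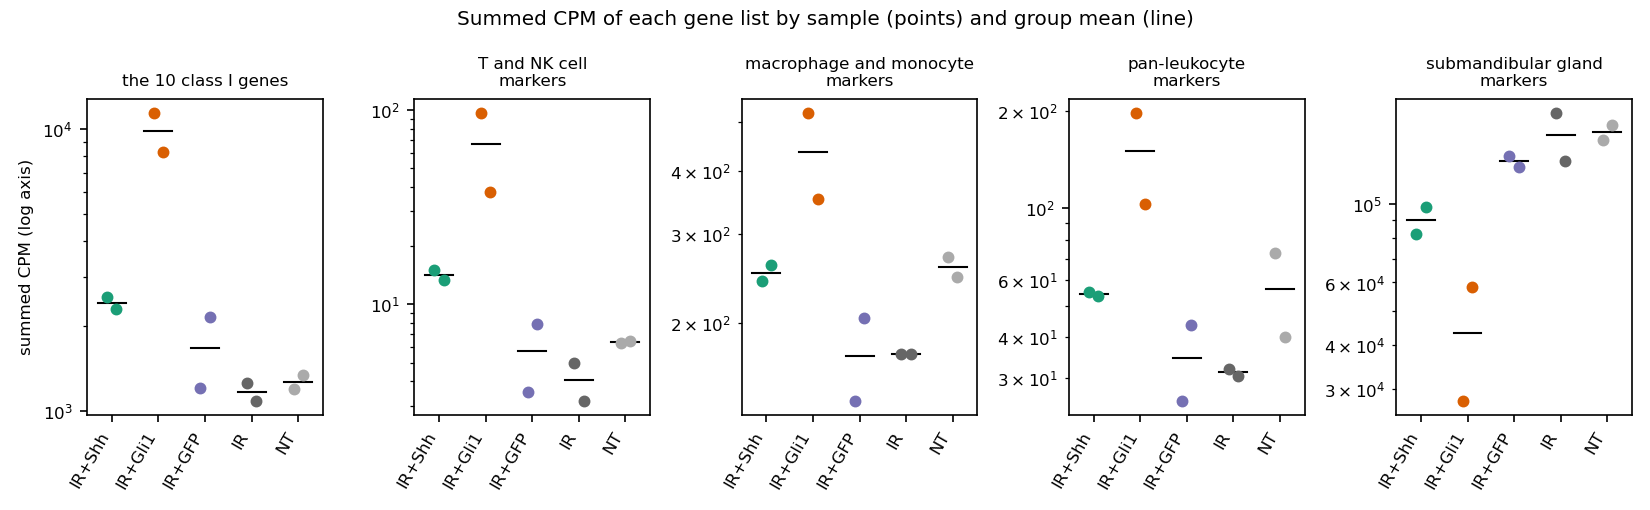
Summed CPM (log axis) of the 10 class I genes and of 4 marker lists in the 2 samples of each group, with the group mean as a line. The class I sum (11359 and 8301 CPM in IR+Gli1) is highest where the 3 leukocyte lists are highest and the submandibular gland markers are lowest.

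The comparison of IR+Shh with IR+GFP sets the Shh label against the transfer control. No member passed the test, and among all genes 0% did (0 of 14300; DESeq2 called 34, limma-voom 0, and 872 genes had an unadjusted p under 0.05 in edgeR, among them B2m and Psmb9). The members' log2 changes ran from -0.17 for Tapbp to 1.03 for Psmb9, with 8 of 10 positive and a median of 0.36, beside 0.00 over all genes. In 5 members both IR+Shh samples lay above both IR+GFP samples (B2m, H2-K1, Tap1, Nlrc5 and Psmb9), against 21.7% of all genes tested. B2m had a log2 change of 0.75 (95% interval 0.18 to 1.32, adjusted p = 0.808). Psmb9 was at 5.89 and 5.20 CPM in IR+Shh, against 2.26 and 3.26 in IR+GFP (log2 1.03, 95% interval 0.06 to 1.99, adjusted p = 0.814). Tap1 was at 30.5 and 26.6 CPM in IR+Shh, against 17.9 and 26.2 in IR+GFP, and Nlrc5 at 12.6 and 13.04 in IR+Shh, against 9.72 and 10.5 in IR+GFP. Tap2 was at 12.8 and 12.3 CPM in IR+Shh and Tapbp at 34.1 and 34.8, both overlapping the IR+GFP samples. Psmb8 was at 9.66 and 7.26 CPM in IR+Shh, against 4.09 and 9.10 in IR+GFP.

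The distance of IR+Shh from its control rested on which IR+GFP sample was used. Without IR+GFP 3, all 10 members were higher in IR+Shh, with log2 changes of 0.29 (Tapbp) to 1.65 (H2-Q6), and with IR+GFP 3 alone, 5 of 10 were. With IR+GFP 3 and IR+Gli1 3 both left out, H2-Q6 passed (adjusted p = 0.0295), on 1 IR+GFP sample. Against IR, all 10 were higher in IR+Shh, by log2 0.15 (Nlrc5) to 1.54 (H2-Q6), and none passed (adjusted p 0.584 to 1). With 15 separate libraries B2m passed (log2 0.93, adjusted p = 0.0181), also with the replicate block (adjusted p = 0.0309); this setting counts the near-identical libraries as independent. In the same comparison, pan-leukocyte markers summed to 55.1 and 53.7 CPM in IR+Shh and 25.5 and 43.7 in IR+GFP, T and NK cell markers to 14.9 and 13.4 CPM in IR+Shh and 3.54 and 7.87 in IR+GFP, and 0 of the genes on any marker list passed. Submandibular gland markers summed to 81951 and 97878 CPM in IR+Shh, below the IR+GFP samples.

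**Figure D5:**
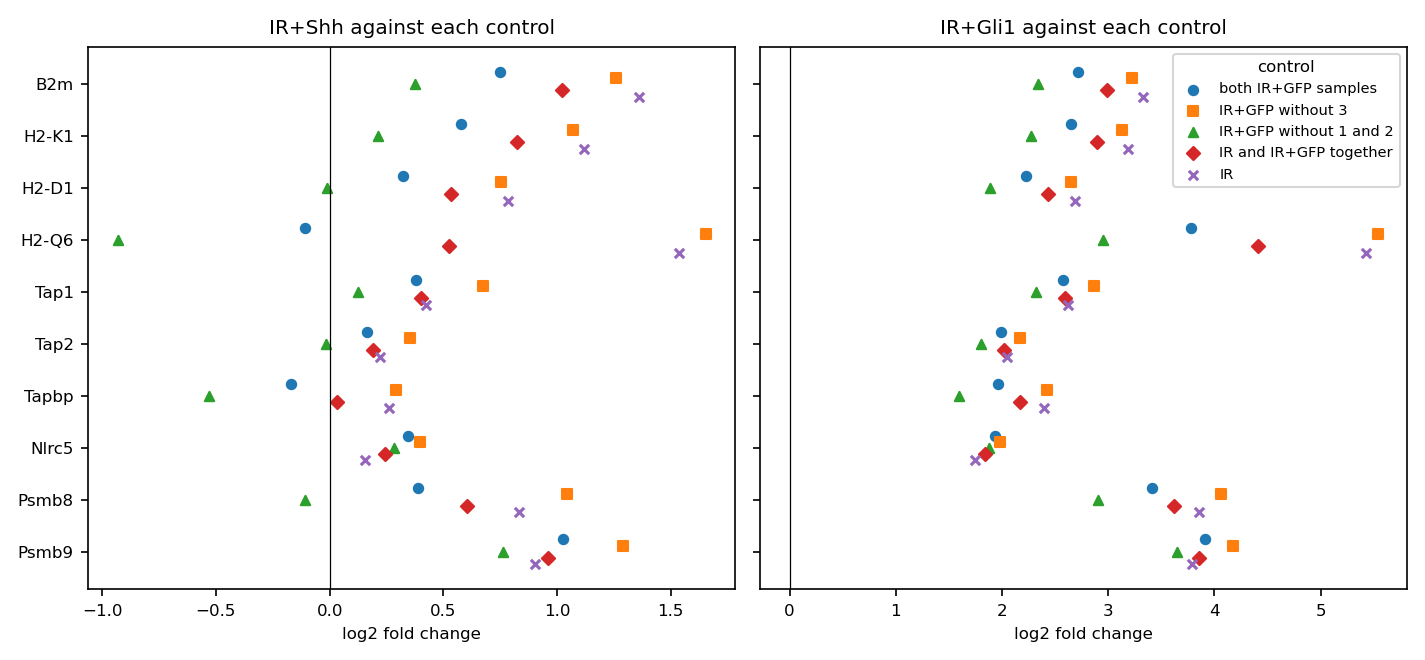
Log2 fold change of each of the 10 genes in IR+Shh (left) and in IR+Gli1 (right) against 5 choices of control samples. In IR+Shh the values move across 0 for H2-Q6, Tapbp, H2-D1, Tap2 and Psmb8 as the control changes, while in IR+Gli1 every value is at 1.60 or above.

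IR+Shh was also set against the group labelled IR+Gli1. All 10 members fell, with log2 changes of -1.59 (Nlrc5) to -3.89 (H2-Q6), a median of -2.10 and adjusted p of 0.00566 to 0.0326; 4.99% of all genes fell. This comparison shares its IR+Gli1 samples with that of IR+Gli1 and IR+GFP, and the same limit from the choice of members holds. H2-Q6 was 14.8-fold lower, Psmb8 8.11-fold, Psmb9 7.40-fold, Tap1 4.58-fold, Tapbp 4.39-fold, H2-K1 4.198-fold, B2m 3.91-fold, H2-D1 3.74-fold, Tap2 3.54-fold and Nlrc5 3.01-fold. Of the related lists, 8 of 13 class I-like genes, 3 of 4 inducible proteasome partners, 6 of 18 transcription factors and 0 of 3 standard catalytic subunits fell. Of the marker lists, 3 of 6 pan-leukocyte, 3 of 12 T and NK cell and 7 of 13 macrophage and monocyte markers fell, and 1 macrophage and monocyte marker rose. Of 5 dendritic cell markers, 1 rose and 1 fell. With either IR+Shh sample left out, 0 of 10 members passed (adjusted p 0.0757 to 0.206), with log2 changes of -1.56 to -3.91; on the compared groups alone, H2-Q6 and Tapbp passed. H2-Q6 also missed the threshold without any 1 of 6 other samples, those of IR+Gli1, IR and NT (adjusted p 0.0509 to 0.152).

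Transfer of GFP was compared with irradiation alone. None of the 10 members passed, and among all genes 0% did (0 of 14300; DESeq2 called 8, limma-voom 0, and 298 genes had an unadjusted p under 0.05 in edgeR). The members' median log2 change was 0.44, with 8 of 10 positive, and B2m was the 1 member whose groups did not overlap (262 and 484 CPM in IR+GFP, against 255 and 234 in IR), while 16.9% of all genes were higher without overlap. The members' median in this comparison depended on the IR+GFP sample used: it was -0.12 without IR+GFP 3 and 0.79 with IR+GFP 3 alone. With IR+GFP 3 alone H2-Q6 passed (log2 2.47, adjusted p = 8.71e-04); the spread then comes from the other groups, and IR+GFP 3 had the highest share of multi-aligned reads.

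Irradiation alone was compared with untreated glands. None of the 10 members passed, against 0.678% of all genes tested, and the members' median log2 change was -0.10 beside -0.02 over all genes. In 6 of 10 members the groups did not overlap, against 51.2% of all genes: Tap1 and H2-Q6 were higher in IR, and B2m, Tapbp, Psmb8 and Psmb9 were lower. Tap1 had the lowest adjusted p, with 22.2 and 20.4 CPM in IR, against 15.6 and 12.9 in NT (log2 0.59 ± 0.27, adjusted p = 0.306); it passed in the fit of 15 separate libraries (adjusted p = 0.0464) but not with the replicate block (adjusted p = 0.0672). Without the NT 2 and 3 sample, which carries the sublingual markers, 0 of 10 passed as well. The 95% interval for B2m ran from log2 -0.69 to 0.45, and that for Psmb9 from -1.34 to 0.57. Of the loading genes outside the 10, Pdia3, a partner of tapasin, fell to 439.8 ± 3.1 CPM in IR, against 773 ± 30 in NT (log2 -0.81, adjusted p = 0.0404), and Lap3, a cytosolic aminopeptidase, to 46.9 ± 2.3 in IR, against 67.6 ± 2.4 in NT (adjusted p = 0.0404). Psmd14, the deubiquitinase of the regulatory particle, fell to 26.1 ± 0.7 CPM in IR, against 42.5 ± 0.3 in NT (log2 -0.71, adjusted p = 0.033), and 0 of 3 standard catalytic subunits passed, with log2 changes of -0.31 to -0.48.

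Across the 10 samples the members rose and fell together. The 45 pairs of members had Pearson r of 0.901 (H2-Q6 with Nlrc5) to 0.997 (H2-K1 with H2-D1), with a median of 0.962 on log2 CPM. The samples fall into 2 clusters, since both IR+Gli1 samples lie far above the rest; over the other 8 samples r was -0.00473 to 0.987 with a median of 0.744. The samples also share groups, scaling and depth, so r is a description. Other tested genes were ranked by Pearson r with the members' mean, on log2 CPM with a prior count of 2. Unnamed gene models were left out. The top 8 were Ifi206, H2-Q7, Nfkbia, Iigp1, Irgm2, Oasl2, Slfn2 and Trim25. Their r was 0.989 to 0.995 over 10 samples and 0.885 to 0.967 over the 8 samples outside IR+Gli1. The genes were picked on all 10 samples, so r over 8 of these is no independent check. Oasl2, for example, averaged 15.3 CPM in IR+Shh, 164 in IR+Gli1, 8.64 in IR+GFP, 5.85 in IR and 8.32 in NT, and H2-Q7 averaged 35.0 CPM in IR+Shh, 361 in IR+Gli1, 22.3 in IR+GFP, 13.05 in IR and 11.4 in NT.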

How the data were processed

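RNA was purified with RNeasy columns and made into TruSeq libraries sequenced on an Illumina HiSeq, per the labels. The authors deposited unnormalized read counts for each Ensembl gene. The submitters' processing notes list the builds mm10 and GRCm38 and the tools HTSeq 0.10.0, TopHat2 2.0.13, Bowtie 0.12.2 and DESeq2; the strand mode is not given in the sources used here. Lines of the files that name no gene (6.98% to 13.9% of reads) were left out, and reads with several alignments are among them. Symbols, coordinates and principal transcript lengths came from GENCODE vM21, which names 96.2% of the genes.

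Members and gene lists were chosen with earlier results of these data known. Libraries of a group with a mean chi-square per gene under 1 (genes summing to 20 or more reads) were combined by the rounded mean of counts: 0.215 to 0.337 in 5 pairs, against 22.0 to 223 in the other 10. The 10 samples were fitted together, 1 mean per group, in edgeR 4.0.16 (R 4.3.3), leaving 5 residual degrees of freedom. Settings were filterByExpr, TMM, robust quasi-likelihood, two-sided tests and Benjamini-Hochberg over 14300 genes, threshold 0.05. A prior count of 2 entered only the log2 CPM for correlations with the members' mean and between same-numbered libraries. Correlations between members used log2 CPM with 0.5 added. From each other list, up to 3 genes per comparison were to be named by smallest p; others were named after their values were seen. Some listed genes are counted in their lists but not reported here by name. Alternatives were other scalings and filters, DESeq2 1.42.0, limma-voom (limma 3.58.1), 15 separate libraries with and without the replicate number as a block, the deeper library of each pair, the compared groups alone, other controls and leaving out each sample; IR as control and a term shared by IR+GFP 3 and IR+Gli1 3 were chosen after seeing the data. Same-numbered libraries were not taken as pairs: of 30 correlations of their deviations, 3 were over 0.1, all between IR+GFP and IR+Gli1 (r = 0.594, 0.535 and 0.598). Libraries 1 and 2 are 1 sample in both groups, and deviations were taken from the group mean. The 3 values therefore restate 1 contrast, that of library 3 with libraries 1 and 2. Floors of 3 reads cover counting error only. The analysis was tested on simulated data.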

Additional observations from a re-analysis of the deposited data

How the results depend on the processing

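In IR+Gli1 against IR+GFP and IR+Shh against IR+Gli1, all 10 members kept their direction under every alternative run. Same-numbered libraries correlated best with their own number in 6 of 15 libraries. Between IR+GFP and IR+Gli1 all 3 numbers correlated, which restates the 1 contrast of library 3 with libraries 1 and 2. With the replicate block all 10 members rose in IR+Gli1 against IR+GFP (log2 2.02 to 4.31). They also rose with the block shared by IR+GFP 3 and IR+Gli1 3 (log2 1.92 to 4.10, adjusted p of 5.51e-04 to 0.0089). Leaving out a sample leaves 1 in its group, assumed to vary like the other groups' samples.

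Genes changed in IR vs NT numbered 97, and 1242 with no low-count filter, 4154 with 15 separate libraries, 4048 with the replicate block on them, 479 by DESeq2, 311 without IR+GFP 3 and IR+Gli1 3, 182 with a block shared by these 2 samples, and 9 to 538 leaving out 1 sample. For IR+GFP vs IR the count was 0, and 210, 5 (15 libraries), 8 (DESeq2) and 0 to 1. For IR+Gli1 vs IR+GFP it was 1993, and 9745 with total-count scaling, 6518 and, with the replicate block, 6496 with 15 libraries, 1 on the compared groups alone, 3607 with IR and IR+GFP as 1 control, and 91 to 2987. For IR+Shh vs IR+GFP it was 0, and 435 with no filter, 538 and 433 with 15 libraries without and with the block, 34 by DESeq2, 24 alone, 2 without both samples numbered 3, 4 with 1 control, and 2 with their shared block. For IR+Shh vs IR+Gli1 it was 1109, and 8088 with total-count scaling, 2639 with no filter, 6065 and 6092 with 15 libraries without and with the block, 9 alone, 2392 without both, and 0 to 2286.

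Members that rose in IR vs NT numbered 1 with no filter and 1 with 15 libraries (Tap1). In IR+GFP vs IR, 1 rose with no filter, and 0 to 1 leaving out 1 sample. In IR+Gli1 vs IR+GFP, 0 rose on the compared groups alone and 7 to 10 leaving out 1 sample. In IR+Shh vs IR+GFP, 2 rose with no filter (B2m and Psmb9), 1 with 15 libraries and 1 with the replicate block (B2m), and 1 without both samples numbered 3 (H2-Q6). In IR+Shh vs IR+Gli1, 2 fell on the compared groups alone and 0 to 10 leaving out 1 sample.

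Directions turned only where the main change was not called. Leaving out 1 sample gave log2 changes in IR vs NT of -0.18 to 0.032 for H2-D1, -0.18 to 0.010 for Tap2 and -0.15 to 0.52 for Nlrc5. In IR+GFP vs IR it gave -0.11 to 2.47 for H2-Q6, -0.25 to 0.30 for Tap1, -0.13 to 0.24 for Tap2, -0.029 to 0.79 for Tapbp, -0.47 to 0.20 for Nlrc5, -0.21 to 0.94 for Psmb8 and -0.39 to 0.14 for Psmb9. In IR+Shh vs IR+GFP it gave -0.93 to 1.65 for H2-Q6, -0.53 to 0.29 for Tapbp, -0.013 to 0.75 for H2-D1, -0.017 to 0.35 for Tap2 and -0.11 to 1.04 for Psmb8. In IR+GFP vs IR, Tap1 and Tap2 were -0.086 and -0.021 with 15 libraries and -0.086 and -0.017 with the replicate block, and Tap1 was -0.0068 by limma-voom. Without both samples numbered 3, H2-Q6, Tap1, Tap2, Tapbp and Psmb8 were -0.12, -0.25, -0.13, -0.030 and -0.21, and Psmb9 was 0.18 with their shared block. In IR+Shh vs IR+GFP, H2-Q6 was 0.013 with total-count scaling, 0.32 with 15 libraries, 0.49 with the replicate block, 0.55 by limma-voom, 1.65 without both, 0.52 with 1 control, 0.71 with the shared block and 1.54 against IR. Tapbp was 0.29 without both, 0.032 with 1 control, 0.043 with the shared block and 0.26 against IR. The causes were not tested. With 2 samples a group and 53 reads of Psmb9 in each IR+GFP sample, small changes were not detectable.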
